A study of Homo sapiens with 10 samples.

Results

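The matrix metalloproteinases (MMPs) and the lysyl oxidases (LOX family) were followed as 10 genes of 58735 in the deposited count table, chosen by gene name as enzymes that degrade or crosslink the extracellular matrix: MMP1, MMP2, MMP7, MMP9, MMP10, MMP13, MMP14, LOX, LOXL2 and LOXL4. RNA was sequenced from A253 cells, a human line from a squamous cell carcinoma of the salivary gland, grown in DMEM with serum. The control carried a guide RNA against dTomato, and the clones Cl1 and Cl10 carried a pair of guides against DUSP1, the phosphatase that switches off the MAP kinases ERK, JNK and p38. All groups went through puromycin and blasticidin selection vectors for guide and Cas9. The labels call the clones DUSP1 KO, and the paper describes them as heterozygous for a deletion of exon 2. It also reports that neither clone expressed DUSP1 protein. Each group had 2 libraries, each clone is 1 line grown from a single cell, and nothing in the labels says that the libraries of a group came from separate cultures, so p-values measure the spread between these libraries, which may be technical. A difference between a clone and the control therefore cannot be told apart from a difference between lines or from an effect of single-cell cloning. Neither the labels nor the paper say whether the control was also grown from a single cell. The question of the comparison was which genes change when DUSP1 is reduced.

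MMPs are zinc endopeptidases made as inactive proenzymes. MMP1 and MMP13 are collagenases that cut fibrillar collagen, MMP10 is a stromelysin, MMP7 is matrilysin, MMP2 and MMP9 are gelatinases that also cut the type IV collagen of basement membranes, and MMP14 is anchored in the cell membrane, where it activates proMMP2 with the help of TIMP2. LOX, LOXL2 and LOXL4 are secreted copper amine oxidases that oxidize lysines of collagen and elastin, the first step of crosslinking. In squamous carcinomas both groups of enzymes are known from the invasive edge of the tumor, and several MMP genes are textbook targets of the AP-1 transcription factors that act downstream of the MAP kinases.

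RefSeq promoter windows (GRCh38.p14) ran from 250 bases before to 50 after the transcription start. They were matched by symbol and examined for 5 of the 10 genes, MMP7, MMP10, MMP14, LOX and LOXL4. The promoter of LOXL2 was left out and not examined. The 120 bases before the start are shown for 4 of them, to set the promoters of MMP10 and MMP7, both in the MMP gene cluster of chromosome 11, beside those of MMP14 and LOX. Capitals mark TGANTCA, the AP-1 core with any base allowed in the middle, in the first pair. In the other pair they mark ACGTG, the core to which hypoxia-inducible factors bind. Both were marked on either strand. All 4 runs were identical to the hg38 sequence and are written 5′ to 3′ on the strand of the gene.
MMP10 (chr11:102780629-102780748, minus strand): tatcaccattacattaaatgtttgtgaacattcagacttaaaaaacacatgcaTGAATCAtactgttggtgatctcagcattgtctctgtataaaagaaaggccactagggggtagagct
MMP7 (chr11:102530748-102530867, minus strand): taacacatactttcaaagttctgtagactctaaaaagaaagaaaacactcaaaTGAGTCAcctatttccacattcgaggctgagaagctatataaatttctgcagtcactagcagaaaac
MMP14 (chr14:22836465-22836584, plus strand): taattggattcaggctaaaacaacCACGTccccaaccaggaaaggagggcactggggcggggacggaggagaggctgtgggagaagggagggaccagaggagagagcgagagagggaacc
LOX (chr5:122078260-122078379, minus strand): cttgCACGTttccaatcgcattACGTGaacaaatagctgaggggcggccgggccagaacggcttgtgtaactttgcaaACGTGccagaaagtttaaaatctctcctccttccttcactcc
In MMP10 and in MMP7 the TGANTCA match begins 67 bases before the start, and a TATAAA match follows 31 and 30 bases before it. TGANTCA was found in 7.71% of 35116 RefSeq promoter windows of the same length, TATAAA in 11.5% and ACGTG in 21.4%, on either strand. The whole LOX window, the first of 3 listed for this gene, held 4 ACGTG matches, beginning 185, 116, 98 and 42 bases before the start, and no TGANTCA. The other LOX windows overlap each other and share 1 ACGTG match, the only one in each, which begins 68 and 117 bases before their starts. The MMP10 window held an ACGTG match as well, 233 bases before the start and so outside the bases shown. The MMP14 window held 1 ACGTG match, 96 bases before the start, and the LOXL4 window held none of the 3 motifs. The motifs do not overlap each other in these windows. A match is a description of letters, and binding was not measured in these libraries.

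Library totals ran from 47016495 to 70986593 counts, and 20153, 19875 and 19818 genes were tested in Cl1 against the control, Cl10 against the control and Cl10 against Cl1. DUSP1, the targeted gene, had 744.8 and 635.7 normalized counts in the control libraries, 304.1 and 353.9 in Cl1 and 495.4 and 415.4 in Cl10, so that all 4 clone libraries lay below both control libraries (log2 fold changes of -1.07 and -0.59, edgeR adjusted p = 0.000292 and 0.0113). Without Cl10 replicate 2 the value in Cl10 was -0.48 and did not pass (edgeR adjusted p = 0.0794). Normalized counts are scaled for library composition (TMM) to the mean library total. Of the 7 squamous epithelial markers examined, which included KRT5, KRT14 and TP63, all were tested in each fit. Their summed level was 663617 to 674031 normalized counts in the control, 759277 to 772907 in Cl1 and 680693 to 711585 in Cl10. Most of it came from KRT5, KRT14 and KRT6A. CDH1 alone passed against the control (0.84 for Cl1, 0.35 for Cl10, on the log2 scale). KRT5 stood at 0.36 in Cl1 and did not pass (edgeR adjusted p = 0.108). TP63 (-0.36) and DSG3 (-0.20) pointed down in Cl1 without passing, while the rest pointed up. Of 8 fibroblast markers, 3 had at most 3 counts in every library and LUM was at 0, while COL1A1 and COL3A1 were present, and the list summed to 2579 to 2916 normalized counts in the control, 2655 to 2831 in Cl1 and 1751 to 1847 in Cl10. Of 8 leukocyte markers, 3 had at most 3 counts in every library, and the summed level of the list was 473 to 518 normalized counts in the control, 820 to 991 in Cl1 and 743 to 821 in Cl10, most of it from CD14 and ITGAM. PTPRC, the defining leukocyte marker, had at most 14 counts in any library. Of 4 endothelial markers, KDR was at 0 in every library, and the list summed to 157 to 254 normalized counts in the control, 327 to 446 in Cl1 and 184 to 239 in Cl10. The part of these markers in the results was not tested.

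All 10 genes passed the filter on low counts in each comparison. In Cl10, 6 of the 10 rose (MMP1, MMP7, MMP10, MMP13, LOX and LOXL2) and 1, MMP2, fell, at an adjusted p under 0.05 in the quasi-likelihood test of edgeR (Benjamini-Hochberg over all genes), where 42.5% of all genes tested passed (20.6% higher and 21.8% lower). In Cl1, MMP13, LOX and LOXL2 rose and MMP2 fell, 4 of the 10, where 25.1% of all genes passed (12.4% higher and 12.8% lower). Over 2-fold, 4 of the 10 rose in Cl10 (MMP1, MMP7, MMP10 and MMP13) and none fell, where 13.4% of all genes passed by that measure (5.98% higher and 7.44% lower). In Cl1, MMP13 and LOX rose over 2-fold and none of the 10 fell, where 7.54% of all genes passed (4.27% higher and 3.27% lower). The median log2 fold change of the 10 genes was 0.69 in Cl10 and 0.17 in Cl1, beside -0.01 over all genes tested in either clone. Both clones were set against the same 2 control libraries, so their values are not independent of each other. In bulk RNA, fewer cells that express a gene and less RNA per cell cannot be told apart.

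**Figure D1:**
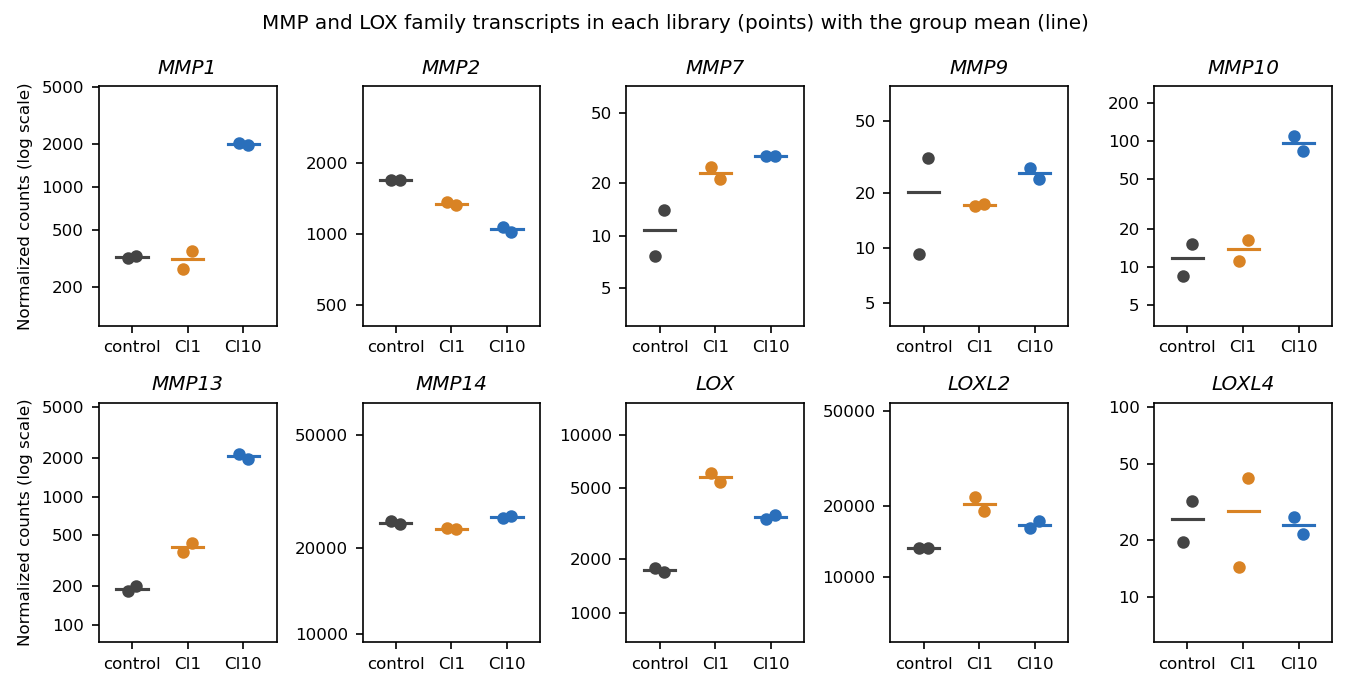
Normalized counts (log axis) of the 10 genes in the 6 libraries, with points for libraries and lines for group means. MMP1, MMP10 and MMP13 stand apart in Cl10, LOX and LOXL2 lie highest in the Cl1 libraries, MMP2 steps down from control to Cl1 to Cl10, and MMP9 and LOXL4 overlap between the control and each clone.

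Levels were compared between genes as CPM (TMM-normalized counts on a common scale of library size) per kb of annotated exon. In the control, MMP14 was highest, with 92.4 ± 1.83 CPM per kb (SD, n = 2), followed by LOXL2 with 38.3 ± 0.101 (SD, n = 2), MMP2 with 6.24 ± 0.00425 (SD, n = 2), LOX with 5.41 ± 0.185 (SD, n = 2), MMP1 with 2.06 ± 0.0242 (SD, n = 2) and MMP13 with 1.18 ± 0.0842 (SD, n = 2). MMP9, LOXL4, MMP10 and MMP7, between 0.0809 and 0.151 CPM per kb in the control, lay within the spread of their libraries and have no firm order. In Cl10 the collagenases MMP13 (12.8 ± 0.809 CPM per kb, SD, n = 2) and MMP1 (12.6 ± 0.247 CPM per kb, SD, n = 2) lay above LOX (10.7 ± 0.369 CPM per kb, SD, n = 2) and MMP2 (3.85 ± 0.136 CPM per kb, SD, n = 2), and the gap between the collagenases was within their spread. In Cl1 LOX, with 17.9 ± 1.33 CPM per kb (SD, n = 2), came next after MMP14 and LOXL2.

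Among the collagenases, MMP13 rose in both clones and MMP1 rose in Cl10. MMP13 (ENSG00000137745, chromosome 11 of hg38 from 102942995 to 102955732, minus strand) had 182.8 and 202.2 normalized counts in the control libraries, 373.3 and 435.9 in Cl1, and 2172 and 1986 in Cl10. The 3 groups did not overlap, with Cl1 in the middle. MMP13 was 2.10-fold higher in Cl1 (log2 fold change 1.07, standard error 0.163, edgeR adjusted p = 0.000533) and 10.9-fold higher in Cl10 (log2 fold change 3.44, standard error 0.108, edgeR adjusted p = 1.29e-05).

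MMP1 (ENSG00000196611, chromosome 11 from 102789401 to 102798160, minus strand) had 321.6 and 327.0 normalized counts in the control libraries, 268.2 and 358.6 in Cl1, and 2017 and 1962 in Cl10. The Cl1 libraries lay on either side of the controls, while both Cl10 libraries were far above them. MMP1 was 6.16-fold higher in Cl10 (log2 fold change 2.62, standard error 0.0903, edgeR adjusted p = 1.56e-05), and its value in Cl1 was -0.05 (standard error 0.170, edgeR adjusted p = 0.852).

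MMP10 (ENSG00000166670, chromosome 11 from 102770502 to 102780628, minus strand), whose promoter is shown above, was scarce outside Cl10. It had 8.46 and 15.1 normalized counts in the control libraries, 11.1 and 16.4 in Cl1, and 110.1 and 83.8 in Cl10. Control and Cl1 overlapped, and both Cl10 libraries lay above all others. Its log2 fold change was 3.08 in Cl10 (standard error 0.346, edgeR adjusted p = 0.000669) and 0.23 in Cl1 (standard error 0.521, edgeR adjusted p = 0.786). The raw counts summed to 24 in the control and 182 in Cl10, a ratio per effective library size of 8.64 with a 95% interval from 5.63 to 13.8 (exact conditional binomial, counting error only). In MMP10, 3.45% of the 50-base words of the longest coding transcript also occur in MMP3, the only gene found to share any, so that some of its reads could fit either gene.

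MMP7 (ENSG00000137673, chromosome 11 from 102520508 to 102530750, minus strand) has TGAGTCA as far from its start as MMP10 has TGAATCA. MMP7 was near the lower limit of the measurement. It had 7.62 and 14.0 normalized counts in the control libraries, 24.8 and 21.1 in Cl1, and 28.5 and 28.7 in Cl10. All 4 clone libraries lay above both controls. MMP7 rose in Cl10 (log2 fold change 1.43, standard error 0.420, edgeR adjusted p = 0.0297). In Cl1 its log2 fold change was 1.12 and missed the threshold (standard error 0.468, edgeR adjusted p = 0.0973), and the direct test of Cl10 against Cl1 did not pass either (0.31, standard error 0.361, edgeR adjusted p = 0.504). With DESeq2, the tool of the study, its value in Cl10 was 1.43 and did not pass (adjusted p = 0.125). Nor did it pass without control replicate 1 (1.02), Cl10 replicate 1 (1.44) or Cl10 replicate 2 (1.43).

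**Figure D2:**
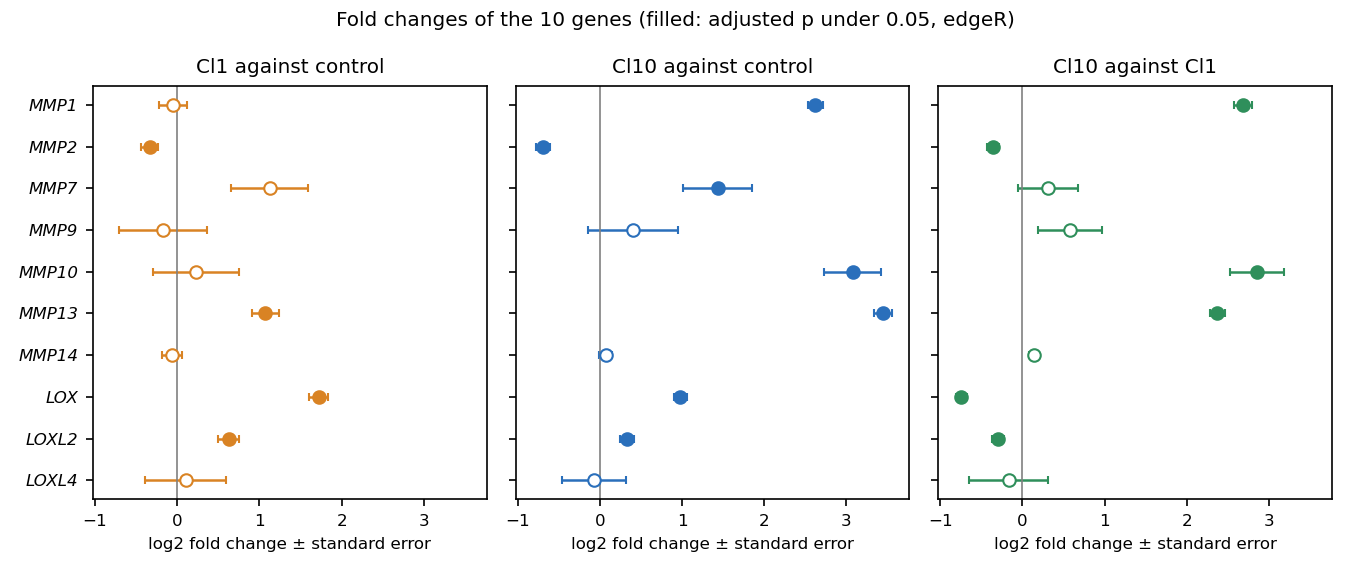
Log2 fold changes with standard errors for the 10 genes in the 3 comparisons, filled where the adjusted p is under 0.05. The collagenases and MMP10 lie between 2.37 and 3.44 in Cl10 against the control and against Cl1, while LOX and LOXL2 lie to the right in both clones and to the left in Cl10 against Cl1.

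The gelatinases and the membrane-bound enzyme did not follow the collagenases. MMP2 (ENSG00000087245, chromosome 16 from 55389700 to 55506691, plus strand) had 1689 and 1691 normalized counts in the control libraries, 1356 and 1317 in Cl1, and 1068 and 1016 in Cl10. The groups stood in the order control, Cl1, Cl10 without overlap. MMP2 fell in Cl10 (log2 fold change -0.69, standard error 0.0819, edgeR adjusted p = 0.000833) and by less in Cl1 (-0.34, standard error 0.108, edgeR adjusted p = 0.0378). The fall in Cl1 did not pass with DESeq2 (-0.34, adjusted p = 0.0544), with a replicate block (-0.34, adjusted p = 0.0784), or without either Cl1 library (-0.36 and -0.31).

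MMP9 (ENSG00000100985, chromosome 20 from 46008908 to 46016561, plus strand) had 9.31 and 31.2 normalized counts in the control libraries, 17.1 and 17.6 in Cl1, and 27.5 and 23.9 in Cl10. The control libraries spanned all 4 clone libraries, and MMP9 passed in neither clone (log2 fold changes of -0.17 and 0.40, edgeR adjusted p = 0.847 and 0.585). One library decides its sign, since without control replicate 2 the values were 0.89 in Cl1 and 1.46 in Cl10, where it then passed (adjusted p = 0.0422), and without control replicate 1 the value in Cl10 was -0.27.

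MMP14 (ENSG00000157227, chromosome 14 from 22836560 to 22849041, plus strand), the most abundant of the 10 genes, had 24932 and 24242 normalized counts in the control libraries, 23505 and 23380 in Cl1, and 25562 and 25931 in Cl10. The groups did not overlap but lay within a narrow band, and MMP14 passed in neither clone (log2 fold changes of -0.07, standard error 0.123, and 0.07, standard error 0.0818; edgeR adjusted p = 0.739 and 0.516).

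Together the 7 MMP genes summed to 102.2 ± 1.53 CPM per kb in the control libraries, with 98.0 ± 0.265 in those of Cl1 and 127 ± 0.412 in those of Cl10 (each SD, n = 2). MMP14 held 90.7% and 90.1% of this sum in the control libraries, 90.4% and 89.5% in Cl1, and 75.3% and 76.7% in Cl10. MMP1 held 10.0% and 9.80% in Cl10, against 1.98% and 2.05% in the control, and MMP13 held 10.4% and 9.59% in Cl10, against 1.09% and 1.23% in the control. The larger sum of Cl10 thus lay mostly in the collagenases. The 3 LOX genes summed to 43.9 ± 0.0404 CPM per kb in the control libraries, with 77.1 ± 7.28 in those of Cl1 and 58.9 ± 2.73 in those of Cl10 (each SD, n = 2). These sums carry no test.

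**Figure D3:**
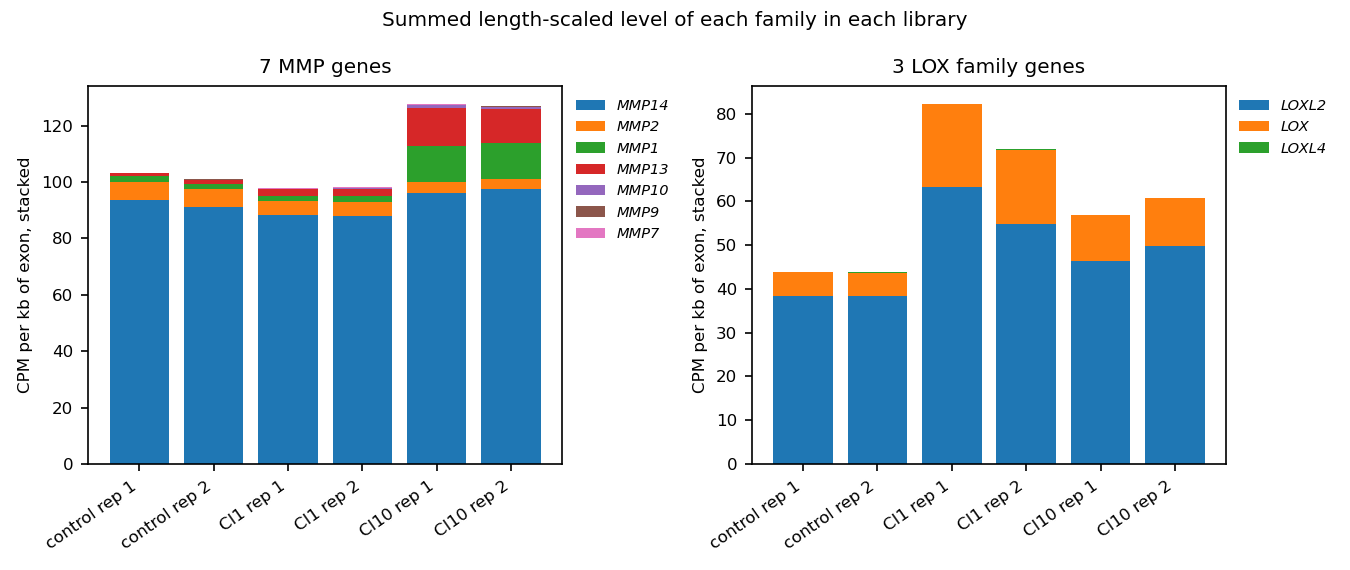
Stacked CPM per kb of annotated exon of the MMP genes (left) and the LOX family genes (right) in each library. The MMP stacks run from 97.8 to 103 in the control and Cl1 and reach 127 and 128 in Cl10, with wide bands of MMP1 and MMP13, and the LOX stacks are highest in the Cl1 libraries (82.2 and 72.0).

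Of the crosslinking enzymes, LOX and LOXL2 rose in both clones. LOX (ENSG00000113083, chromosome 5 from 122063195 to 122078413, minus strand) had 1786 and 1702 normalized counts in the control libraries, 6053 and 5447 in Cl1, and 3349 and 3517 in Cl10. The groups did not overlap, with Cl10 in the middle. LOX was 3.30-fold higher in Cl1 (log2 fold change 1.72, standard error 0.115, edgeR adjusted p = 7.97e-07) and 1.97-fold higher in Cl10 (log2 fold change 0.98, standard error 0.0807, edgeR adjusted p = 0.000215). LOX stayed under the adjusted p threshold in both clones in every alternative fit. At 0.98 in Cl10 it fell short of the over 2-fold measure. SRFBP1 overlaps LOX on the opposite strand, with 649 to 1282 counts in any library.

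LOXL2 (ENSG00000134013), on chromosome 8, had 13183 and 13232 normalized counts in the control libraries, 21830 and 18887 in Cl1, and 16000 and 17157 in Cl10. All 4 clone libraries lay above both controls. It was 1.54-fold higher in Cl1 (edgeR adjusted p = 0.00347) and 1.26-fold higher in Cl10 (edgeR adjusted p = 0.0177). Without Cl1 replicate 1 the value in Cl1 was 0.52 and did not pass, and in Cl10 it did not pass without either Cl10 library (0.39 and 0.28). LOXL2 overlaps ENTPD4 on the same strand and shares 2.02% of its 50-base words with it, and how reads in the overlap were counted is not given in the sources used here.

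LOXL4 (ENSG00000138131, chromosome 10 from 98247690 to 98268194, minus strand) was low in every library. It had 19.5 and 32.3 normalized counts in the control libraries, 14.5 and 42.2 in Cl1, and 26.5 and 21.5 in Cl10. All groups overlapped, and no difference was detectable at this depth (log2 fold changes of 0.10 and -0.07, standard errors 0.495 and 0.385, edgeR adjusted p = 0.904 and 0.897).

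Set directly against each other, the clones differed for 6 of the 10 genes, where 49.00% of all genes tested passed (24.9% higher and 24.1% lower). MMP1, MMP10 and MMP13 were higher in Cl10, by log2 fold changes of 2.69, 2.85 and 2.37 (standard errors 0.112, 0.328 and 0.0930, edgeR adjusted p = 5.61e-09, 1.51e-05 and 3.3e-09), all 3 over 2-fold. By that measure 10.8% of all genes passed (4.47% higher and 6.28% lower). LOX, LOXL2 and MMP2 were lower in Cl10, by log2 fold changes of -0.74, -0.29 and -0.35 (standard errors 0.0658, 0.0747 and 0.0750, edgeR adjusted p = 1.78e-06, 0.00592 and 0.00174). The LOXL2 difference did not pass without Cl10 replicate 1 (-0.24, edgeR adjusted p = 0.117), and it was -0.19 without Cl1 replicate 1. Thus the collagenases and the stromelysin were highest in Cl10, and LOX was highest in Cl1. MMP14 was at 0.14 and did not pass (standard error 0.0595, edgeR adjusted p = 0.0706), and it passed with library size only (0.21) and without either Cl1 library (0.14 and 0.13).

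MMP7, MMP10, MMP1, MMP3 and MMP13 lie in 1 stretch of chromosome 11, which from MMP7 to MMP13 covers 435 kb. MMP3, a stromelysin that is not among the 10 genes, had 1.69 and 2.15 normalized counts in the control libraries, 1.71 and 4.69 in Cl1, and 11.8 and 11.97 in Cl10. Its raw counts summed to 4 in the control and 22 in Cl10, a ratio of 6.27 with a 95% interval from 2.13 to 25.02 (exact conditional binomial, counting error only). MMP8, MMP12 and MMP20 of the same cluster had at most 4 counts in any library, and MMP27 had none. MMP3 passed the filter on low counts through its Cl10 libraries and was not tested in Cl1, so it is left out of the count. Of the 4 MMP genes of the cluster tested in both clones, 4 rose in Cl10 (20.6% of all genes did), by 1.43 to 3.44 on the log2 scale, and 1 rose in Cl1 (12.4% of all genes did). MMP7 is among the 4, with the losses given above. Of 12 other genes tested in Cl10 within 1 Mb of the stretch, 3 rose and 4 fell (20.6% and 21.8% of all genes did). Their median was -0.25, with a range from -2.25 to 1.34. The 50 tested genes nearest to MMP1, MMP10, MMP13 or MMP7 had median log2 fold changes between 0.07 and 0.10 in Cl10, and with that median subtracted the 4 values were 2.53, 2.98, 3.37 and 1.36. WTAPP1, which overlaps MMP1 and MMP10 on the opposite strand, had 8 to 24 counts in any library and passed in neither clone (-0.30 and -0.70). For the other 6 genes the local medians lay between -0.13 and 0.22.

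**Figure D4:**
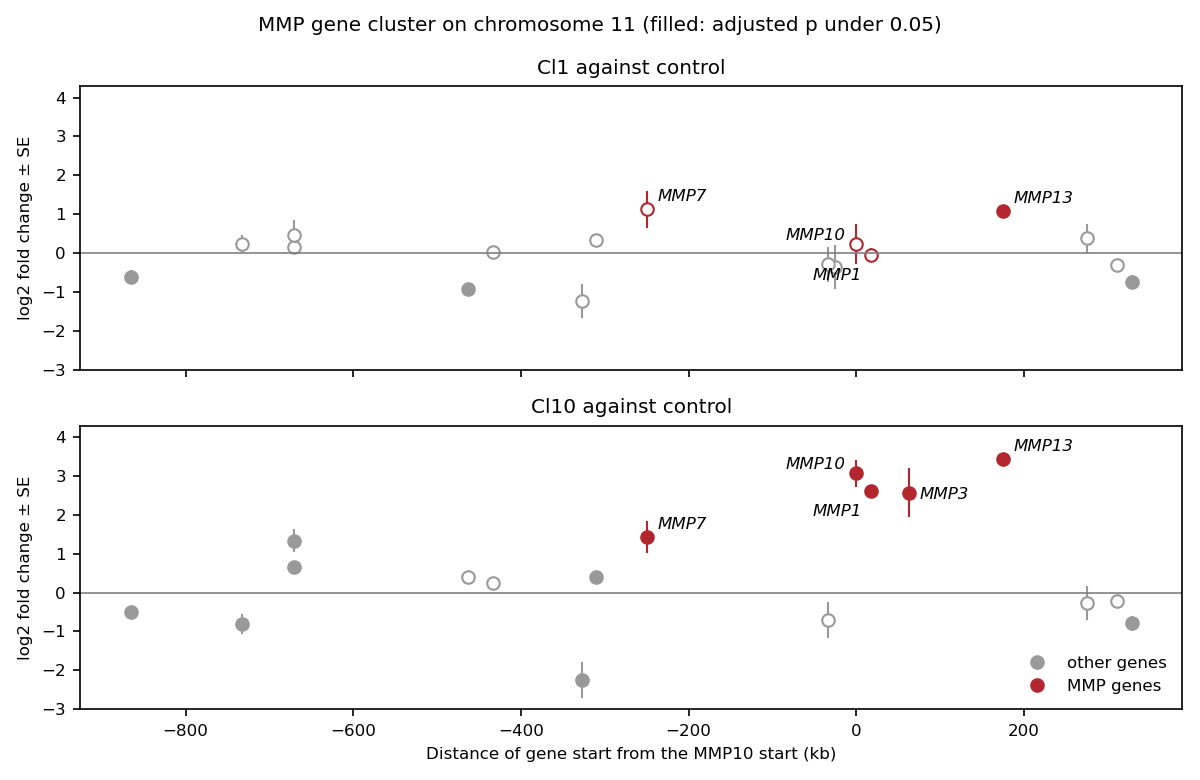
Log2 fold changes with standard errors of the tested genes around the MMP cluster of chromosome 11, by distance of the gene start from that of MMP10, filled where the adjusted p is under 0.05. In Cl10 the MMP genes lie from 1.43 to 3.44, with MMP3 tested in that clone alone, and in Cl1 MMP13 alone of the 4 tested MMP genes passed, at 1.07.

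Outside the 10 genes, 10 of 16 other MMP genes were tested in Cl10, where 2 rose and 3 fell, and 8 in Cl1, where 1 rose and 3 fell (medians of 0.02 and -0.17). MMP3, which passed the filter on low counts through its Cl10 libraries, is 1 of the 2 that rose in Cl10. Of all genes tested, 20.6% rose and 21.8% fell in Cl10, and 12.4% rose and 12.8% fell in Cl1. MMP19 rose in both clones (2.48 in Cl1 and 1.85 in Cl10 on the log2 scale, the order used for all pairs of values here), from 22.9 and 29.0 normalized counts in the control libraries to 153.8 and 133.6 in Cl1 and 103.2 and 81.4 in Cl10. MMP11, stromelysin-3, fell in both (-0.69 and -2.47), from 725.3 and 734.7 normalized counts in the control to 483.5 and 417.2 in Cl1 and 136.6 and 124.5 in Cl10. MMP15, another membrane-bound MMP, also fell in both (-0.38 and -0.73). The other lysyl oxidases, chosen for mention after their values were seen, split by clone. LOXL1 rose in Cl1 (0.69, edgeR adjusted p = 0.00446) and was at -0.03 in Cl10, and LOXL3 rose in Cl10 (0.76, edgeR adjusted p = 0.00208) and was at -0.26 in Cl1.

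Of the inhibitors of MMPs, 5 of 6 were tested, of which 2 rose and 0 fell in Cl1 and 1 rose and 3 fell in Cl10 (medians of -0.19 and -0.52). The shares over all genes tested were 12.4% higher and 12.8% lower in Cl1, and 20.6% higher and 21.8% lower in Cl10. TIMP3, the inhibitor that is bound to the matrix, rose in both clones (0.62 and 1.42). TIMP2, the partner of MMP14 on proMMP2, rose in Cl1 (0.47) and fell in Cl10 (-0.52), where its 50 nearest tested genes had a median of -0.44. The others that fell in Cl10, named after their values were seen, were TIMP1 (-0.81) and RECK (-0.91), the membrane-anchored inhibitor, and neither passed in Cl1 (-0.28 and -0.19).

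Of the activators of MMPs, 12 of 13 were tested, of which 5 rose and 2 fell in Cl1 and 4 rose and 6 fell in Cl10 (medians of 0.10 and -0.36). Over all genes tested, 12.4% rose and 12.8% fell in Cl1, and 20.6% rose and 21.8% fell in Cl10. The proprotein convertases PCSK6 (0.69 and 1.16) and PCSK7 (0.77 and 0.63) and the membrane protease matriptase, encoded by ST14 (0.93 and 0.30), rose in both clones. KLK7 fell in both (-1.02 and -0.61). KLK5 fell in Cl1 (-0.86) and rose in Cl10 (2.48), and PCSK5 rose in Cl1 (0.43) and fell in Cl10 (-0.39). Urokinase and its receptor, PLAU and PLAUR, which start the plasmin cascade and are named after their values were seen, fell in Cl10 (both -0.88) and did not pass in Cl1 (-0.24 and -0.23).

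Of the genes for processing and partners of LOX, 9 of 10 were tested, of which 2 rose and 4 fell in Cl1 and 1 rose and 3 fell in Cl10 (medians of -0.33 and -0.30). The shares over all genes tested were 12.4% higher and 12.8% lower in Cl1, and 20.6% higher and 21.8% lower in Cl10. BMP1, the protease that releases active LOX from its propeptide, rose in both clones (0.52 and 0.60), from 5986 and 6146 normalized counts in the control to 8723 and 8616 in Cl1 and 9010 and 9376 in Cl10. ADAMTS2, a procollagen peptidase, fell in both (-0.80 and -1.31), as did FBLN5 (-0.73 and -0.84) and TLL2 (-0.38 and -0.50). Of the substrates, 10 of 12 were tested, of which 2 rose and 1 fell in Cl1 and 1 rose and 6 fell in Cl10 (medians of 0.11 and -0.48). Over all genes tested, 12.4% rose and 12.8% fell in Cl1, and 20.6% rose and 21.8% fell in Cl10. FN1, fibronectin, fell in both clones (-1.37 and -1.49).

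All 13 transcription factors of the AP-1, ETS and RUNX families that are known at MMP promoters were tested, of which 3 rose and 5 fell in Cl1 and 4 rose and 4 fell in Cl10 (medians of -0.09 and 0.00011). Over all genes tested, 12.4% rose and 12.8% fell in Cl1, and 20.6% rose and 21.8% fell in Cl10. FOS rose in both clones (2.66 and 1.15), and FOSB rose in both clones (1.36 and 0.81). FOSL1 fell in Cl1 (-0.62) and rose in Cl10 (0.31), and ELF3 did the opposite (0.36 and -0.33). JUN, named after its values were seen, rose in Cl10 (1.21, edgeR adjusted p = 0.000125) and was at 0.31 in Cl1 (edgeR adjusted p = 0.0520). Its 1785 and 1821 normalized counts in the control libraries stood beside 2312 and 2146 in Cl1 and 3983 and 4310 in Cl10. The part of these factors in the levels of the MMP genes was not tested. RUNX2, ETV4 and ETV5 fell in both clones (-0.95 and -0.60, -0.88 and -0.54, and -0.65 and -0.93).

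MMP13 and MMP1 had the widest range of group mean log2 CPM among members with at least 1 CPM (3.25 and 2.57). Of 14892 genes with at least 1 CPM, those nearest to MMP13 in centred log2 CPM over the 6 libraries, by Euclidean distance, were RASGRF1 (0.575), AC005863.1 (0.685) and PAMR1 (0.751). Those nearest to MMP1 were RAMP1 (0.385), AC005863.1 (0.569) and NCAM1 (0.634). RAMP1, a receptor activity-modifying protein, had means of 190.5 normalized counts in the control, 164 in Cl1 and 1175 in Cl10, and RASGRF1, an exchange factor for Ras, had 61.7, 149 and 1096.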

How the data were processed

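RNA-seq libraries of A253 cells were compared in 3 groups of 2, the control, Cl1 and Cl10. The other 4 samples of the series were not analysed here. The authors prepared poly(A)-selected paired-end libraries, used HISAT2 for alignment to hg38 and HTSeq for gene counts (the submitters' processing notes also name StringTie and DESeq), and the deposited values are raw counts, without normalization, for 58735 genes. Versions, annotation and strand setting are not given in the sources used here, and the library kit is a stranded mRNA kit in the labels and TruSeq RNA in the methods, so reads of overlapping and antisense genes carry that uncertainty. Columns were matched to samples by name. Of the identifiers, 58207 were found in GENCODE v44 (hg38), which gave coordinates and exon lengths.

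Each comparison was fitted on all genes of its own 4 libraries with edgeR 4.0.16 in R 4.3.3 (filterByExpr, TMM, estimateDisp, glmQLFit, glmQLFTest) with Benjamini-Hochberg adjustment. A gene passed at an adjusted p under 0.05, and counts over 2-fold also asked for a log2 value beyond 1 in size. Standard errors were taken as the size of the unshrunk log2 value over the square root of F. DESeq2 1.42.0, other scaling and filters, 1 fit over the 6 libraries, a replicate block (and, added after seeing the data, a crossed one), subtraction of the median of the 50 nearest tested genes and leaving out each library were alternatives. The fit was tested on simulated counts. Totals were 47016495 to 70986593 counts, and intervals cover counting error only. The 2 libraries of a group differed beyond counting error (chi-square p under 0.05) in 58.5% of 15278 well-counted genes in the control. The share was 47.4% of 15213 in Cl1 and 23.6% of 14925 in Cl10, so spread between libraries also limits the precision. The members, lists and alternatives were chosen with earlier results of these data known. All 10 members are named. Of each list, up to 3 genes a direction that passed in both clones with at least 1 CPM are named, with list genes within 1 Mb of a member, and other names are marked as chosen after their values were seen. One substrate gene that this rule names is not reported here. For the 2 members with the widest range of group means, the 3 nearest genes by distance of log2(CPM + 0.5) are named.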

Additional observations from a re-analysis of the deposited data

Results flagged for a closer look

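The clones differed from each other, by the test of Cl10 against Cl1 (edgeR's quasi-likelihood test), in the following results, given as log2 fold changes and limited to the members and pathway list genes named in the report and tested in all 3 comparisons. By the same test 49.00% of all genes tested passed (24.9% higher and 24.1% lower in Cl10). Of the 10 genes, MMP1 (2.69), MMP10 (2.85) and MMP13 (2.37) were higher in Cl10, and MMP2 (-0.35), LOX (-0.74) and LOXL2 (-0.29, lost without Cl10 replicate 1) were lower. Of the other MMP genes and the inhibitors, MMP11 (-1.78), MMP15 (-0.35), MMP19 (-0.63), TIMP1 (-0.53), TIMP2 (-0.99) and RECK (-0.71) were lower in Cl10, and TIMP3 (0.79) was higher. Of the other lysyl oxidases, LOXL1 (-0.72) was lower in Cl10 and LOXL3 (1.02) was higher. Of the activators and LOX partners, KLK5 (3.34), PCSK6 (0.47) and KLK7 (0.41) were higher in Cl10, and PCSK5 (-0.81), PLAU (-0.64), PLAUR (-0.65), ST14 (-0.63) and ADAMTS2 (-0.50) were lower. Of the transcription factors, FOSL1 (0.93), JUN (0.90), ETV4 (0.33) and RUNX2 (0.35) were higher in Cl10, and FOS (-1.51), FOSB (-0.56) and ELF3 (-0.68) were lower. With 2 libraries a group, single libraries were not tested for standing apart.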

How the results depend on the processing

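Of 337 values of the members under the alternatives with a test, 311 kept direction and side of the threshold, 12 no longer passed, 4 came to pass and 10 changed sign. Of 30 values with the local median subtracted, which carry no test, 29 kept their direction. Asking for over 2-fold moved the number of genes that passed from 4 to 2 in Cl1, from 7 to 4 in Cl10 and from 6 to 3 in Cl10 against Cl1. Leaving out 1 library gave 2 to 4 genes in Cl1, 5 to 8 in Cl10 and 5 to 7 in Cl10 against Cl1. In these fits the lone library is assumed to vary like the other group, and fewer libraries are tested. The lowest count in Cl1, 2 genes, came without Cl1 replicate 1, where MMP2 and LOXL2 did not pass.

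The sign changes were all in genes that had not passed. In Cl1 they were MMP1 without Cl1 replicate 1 (0.15), MMP9 without control replicate 2 (0.89, lowest -0.85 with another library left out), MMP10 without control replicate 1 (-0.16) and lacking Cl1 replicate 2 (-0.05, highest 0.67), LOXL4 without control replicate 1 (-0.24) and lacking Cl1 replicate 2 (-0.80, highest 0.73), and MMP14 with the local median subtracted (0.064). In Cl10 they were MMP9 without control replicate 1 (-0.27, highest 1.46) and LOXL4 without control replicate 2 (0.31, lowest -0.42) and lacking Cl10 replicate 2 (0.060). In Cl10 against Cl1 it was LOXL4 without Cl1 replicate 2 (0.72). The cause was not tested.

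The replicate numbers of the labels name no shared batch. The replicate differences of the groups had correlations of -0.13, -0.09 and 0.0077 across 20582 genes, and with a replicate block 3 members passed in Cl1, 7 in Cl10 and 6 in Cl10 against Cl1, so that the pairing changed only the call of MMP2 in Cl1. Control and Cl1 paired crosswise, an alternative chosen after seeing the data, gave 4 members. With library size only, the split of all genes passing in Cl1 was 1942 higher and 3191 lower, against 2489 and 2575 with TMM, and in Cl10 against Cl1 5910 and 3939, against 4932 and 4774. MMP7, MMP9 and LOXL4, with 9 to 36 counts a library, and MMP10 outside Cl10, with 10 to 14, are limited by depth.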
